A study of Mus musculus with 74 samples.

Results

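The promoter contacts of 35 mouse genes that drive or police mitosis were compared in 3 promoter capture Hi-C lists. The genes were chosen by function (cyclins and mitotic kinases, spindle checkpoint and anaphase-promoting complex, centromere and kinetochore, spindle motors and cytokinesis). A gene was matched to a captured restriction fragment when that fragment held its annotated start or end on the mm10 build. A captured fragment was found for 33 of the 35 genes, among 16720 protein-coding genes with one. These 33 genes had 35 fragments, because Cdc20 and Top2a each had 2. Pttg1 (securin, the inhibitor of separase) and Kif23 (a cytokinesis motor) had none.

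The cells were HPC-7, a mouse haematopoietic stem and progenitor cell line. The HPC list came from non-transduced cells grown with SCF (stem cell factor) at 100 ng/ul. Both erythroid lists came from cells induced with erythropoietin (EPO) at 4 U/l and SCF at 20 ng/ul, with a doxycycline-inducible short hairpin RNA: Luc, the control, in Ery Luc, and shStag2 in Ery shStag2. Stag2 is a subunit of cohesin, the ring-shaped complex that holds sister chromatids together and shapes chromatin loops. Doxycycline was labelled 72 h and 73 h for the 2 Ery Luc libraries and 72 h for both Ery shStag2 libraries. HPC and Ery Luc therefore differed in the hairpin vector, doxycycline, SCF and EPO together, and these cannot be told apart. The labels call all 3 groups stem and progenitor cells, and erythroid markers were not checked, since the RNA counts were not used here. Each list pools 2 libraries of its group, so the values below could not be checked against replicates and carry no p-values.

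During mitosis, cyclin B with Cdk1 and the Polo and Aurora kinases drive entry and spindle assembly. Kinetochores that lack microtubules keep the spindle checkpoint on, and Mad2 and BubR1 then hold back Cdc20, the activator of the anaphase-promoting complex (APC/C). Once the checkpoint is satisfied, the complex tags securin and cyclin B for destruction, and separase cuts cohesin. Many of these genes are transcribed late in the cell cycle from promoters with CCAAT boxes and a cell cycle genes homology region (CHR).

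The promoter letters showed that shared design in most of the genes, though not in all. RefSeq windows on GRCm38.p6 (mm10), from 250 bases before to 50 bases after the start, were found for 30 of the 35 genes. The CHR motif was searched as TTTGAA or TTCGAA and the CCAAT box as CCAAT, on both strands. A CHR match lay in 22 of 30 genes (73.3%), against 21.7% of the 27025 genes with a window. A CCAAT match lay in 22 of 30 (73.3%), against 41.1%. Both stood in 19 of 30 (63.3%), against 8.61%, and at least 2 CCAAT matches in 14 of 30 (46.7%), against 13.3%. Mad2l1, Nuf2, Birc5, Nusap1 and Pttg1 held neither. A match describes letters only, and no match says only that these letters are not in this window. The upstream parts of 7 windows are shown, 5 with matches and 2 without. All run 5′ to 3′ along the gene and end before the annotated gene, with matches in capitals. They are Ccnb2 (chr9:70421555-70421804, minus strand), Cdk1 (chr10:69352913-69353162, minus strand), Cdc20 (chr4:118437344-118437593, minus strand), Top2a (chr11:99024200-99024439, minus strand), Espl1 (chr15:102296043-102296253, plus strand), Mad2l1 (chr6:66534971-66535220, plus strand) and Nuf2 (chr1:169531465-169531714, minus strand).
Ccnb2: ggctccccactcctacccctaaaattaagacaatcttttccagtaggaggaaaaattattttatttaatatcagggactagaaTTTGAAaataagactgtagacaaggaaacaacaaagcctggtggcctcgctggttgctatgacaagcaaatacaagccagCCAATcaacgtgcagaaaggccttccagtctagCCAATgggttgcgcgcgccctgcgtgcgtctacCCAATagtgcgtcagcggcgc
Cdk1: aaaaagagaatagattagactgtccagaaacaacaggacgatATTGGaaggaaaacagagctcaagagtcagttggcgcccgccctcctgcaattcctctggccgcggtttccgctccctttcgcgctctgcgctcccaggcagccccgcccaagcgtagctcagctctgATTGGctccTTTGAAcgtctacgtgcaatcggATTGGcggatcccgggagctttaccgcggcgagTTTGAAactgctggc
Cdc20: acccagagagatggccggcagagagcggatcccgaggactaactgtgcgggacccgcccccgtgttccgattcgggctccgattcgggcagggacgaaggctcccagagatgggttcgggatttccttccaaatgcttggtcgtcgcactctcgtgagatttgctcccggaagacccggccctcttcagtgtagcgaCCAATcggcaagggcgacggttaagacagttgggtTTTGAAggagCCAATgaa
Top2a: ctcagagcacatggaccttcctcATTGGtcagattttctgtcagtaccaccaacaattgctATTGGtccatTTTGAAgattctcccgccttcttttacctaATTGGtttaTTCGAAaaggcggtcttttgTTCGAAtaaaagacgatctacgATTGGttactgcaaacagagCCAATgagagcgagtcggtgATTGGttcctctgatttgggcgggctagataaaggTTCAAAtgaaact
Espl1: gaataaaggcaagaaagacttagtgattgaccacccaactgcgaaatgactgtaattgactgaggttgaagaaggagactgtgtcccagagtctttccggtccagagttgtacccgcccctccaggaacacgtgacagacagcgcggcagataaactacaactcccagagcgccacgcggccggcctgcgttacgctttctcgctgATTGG
Mad2l1: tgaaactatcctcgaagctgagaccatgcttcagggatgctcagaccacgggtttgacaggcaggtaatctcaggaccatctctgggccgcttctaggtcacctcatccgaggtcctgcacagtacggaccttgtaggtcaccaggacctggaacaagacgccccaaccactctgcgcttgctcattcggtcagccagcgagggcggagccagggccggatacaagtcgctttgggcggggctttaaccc
Nuf2: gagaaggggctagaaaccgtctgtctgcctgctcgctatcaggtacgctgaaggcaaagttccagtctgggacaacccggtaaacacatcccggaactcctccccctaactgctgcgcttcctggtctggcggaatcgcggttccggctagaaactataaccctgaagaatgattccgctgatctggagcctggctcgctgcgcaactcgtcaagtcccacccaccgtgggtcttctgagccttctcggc

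Top2a had the most matches, with 4 CHR and 6 CCAAT matches in its window. The printed part of Espl1 stops at the annotated gene, after 211 bases, so its counted CHR match at -27 is not shown. Over all 32 member windows, 37 of 52 CCAAT matches and 23 of 31 CHR matches began within 100 bases of the start. Bub3 and Prc1 each had 2 overlapping windows, so their sites that lay in both windows were counted 2 times. The same share over the windows of all genes was not computed. The 18 captured genes with both motifs had medians of 3, 6 and 4.5 listed interactions within chromosomes in HPC, Ery Luc and Ery shStag2, with ranges of 0 to 21, 0 to 21 and 1 to 20. The 10 with a window but without both had medians of 1, 2.5 and 2, with ranges of 0 to 30, 0 to 30 and 0 to 29. The ranges overlapped between genes with and without both motifs, and no test was made.

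**Figure D1:**
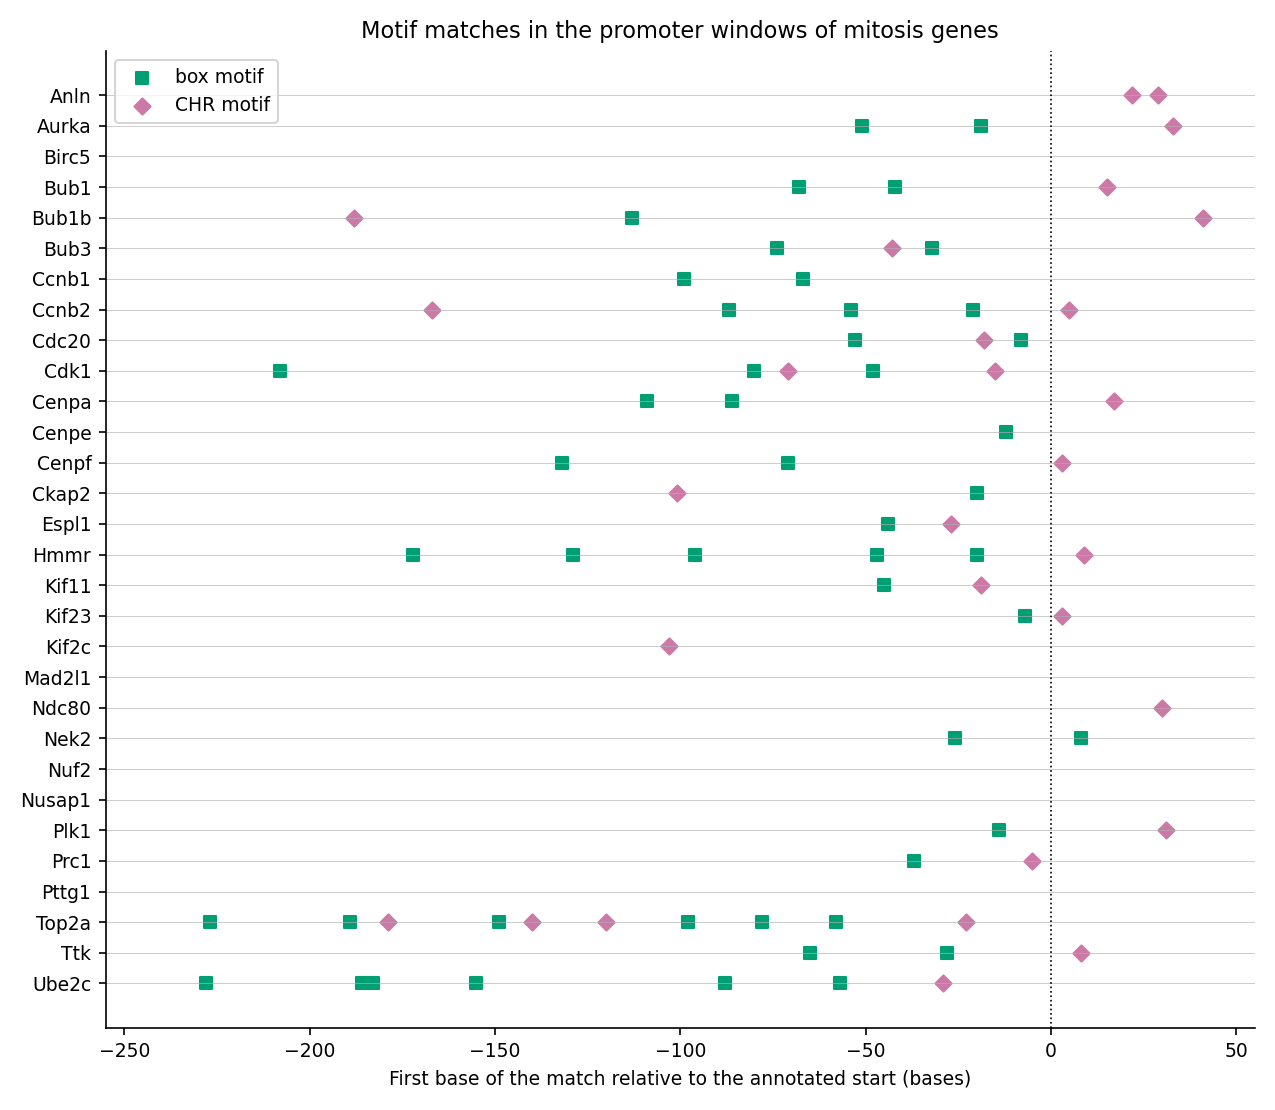
Positions of CHR and CCAAT matches in the promoter windows of 30 mitosis genes. The x axis gives the first base of each match relative to the annotated start, in bases, with squares for CCAAT and diamonds for CHR, 1 row per gene and the first of 2 windows for Bub3 and Prc1. Top2a carries 10 matches, and the rows of Mad2l1, Nuf2, Birc5, Nusap1 and Pttg1 are empty.

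Most of the 33 genes had few contacts, and a handful had many. An interaction is a captured fragment and another fragment that the authors listed with a score of at least 5, and the score is the authors' own. Scores are set side by side in the order HPC, Ery Luc, Ery shStag2 and describe each contact within its list. The members had 247 interactions within their chromosomes in HPC, 234 in Ery Luc and 241 in Ery shStag2. In total, 26 of 33 genes had at least 1 in every list, and 6 genes had 20 or more in some list: Nek2, Nuf2, Kif20a, Espl1, Top2a and Hmmr. Of the 33 genes, 13 shared a fragment with a gene outside the list, so their contacts cannot be told apart from that neighbour's. They were Ccnb1, Ccna2, Aurka, Bub1, Bub3, Cdc20, Ube2c, Ndc80, Kif20a, Nusap1, Prc1, Anln and Hmmr.

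**Figure D2:**
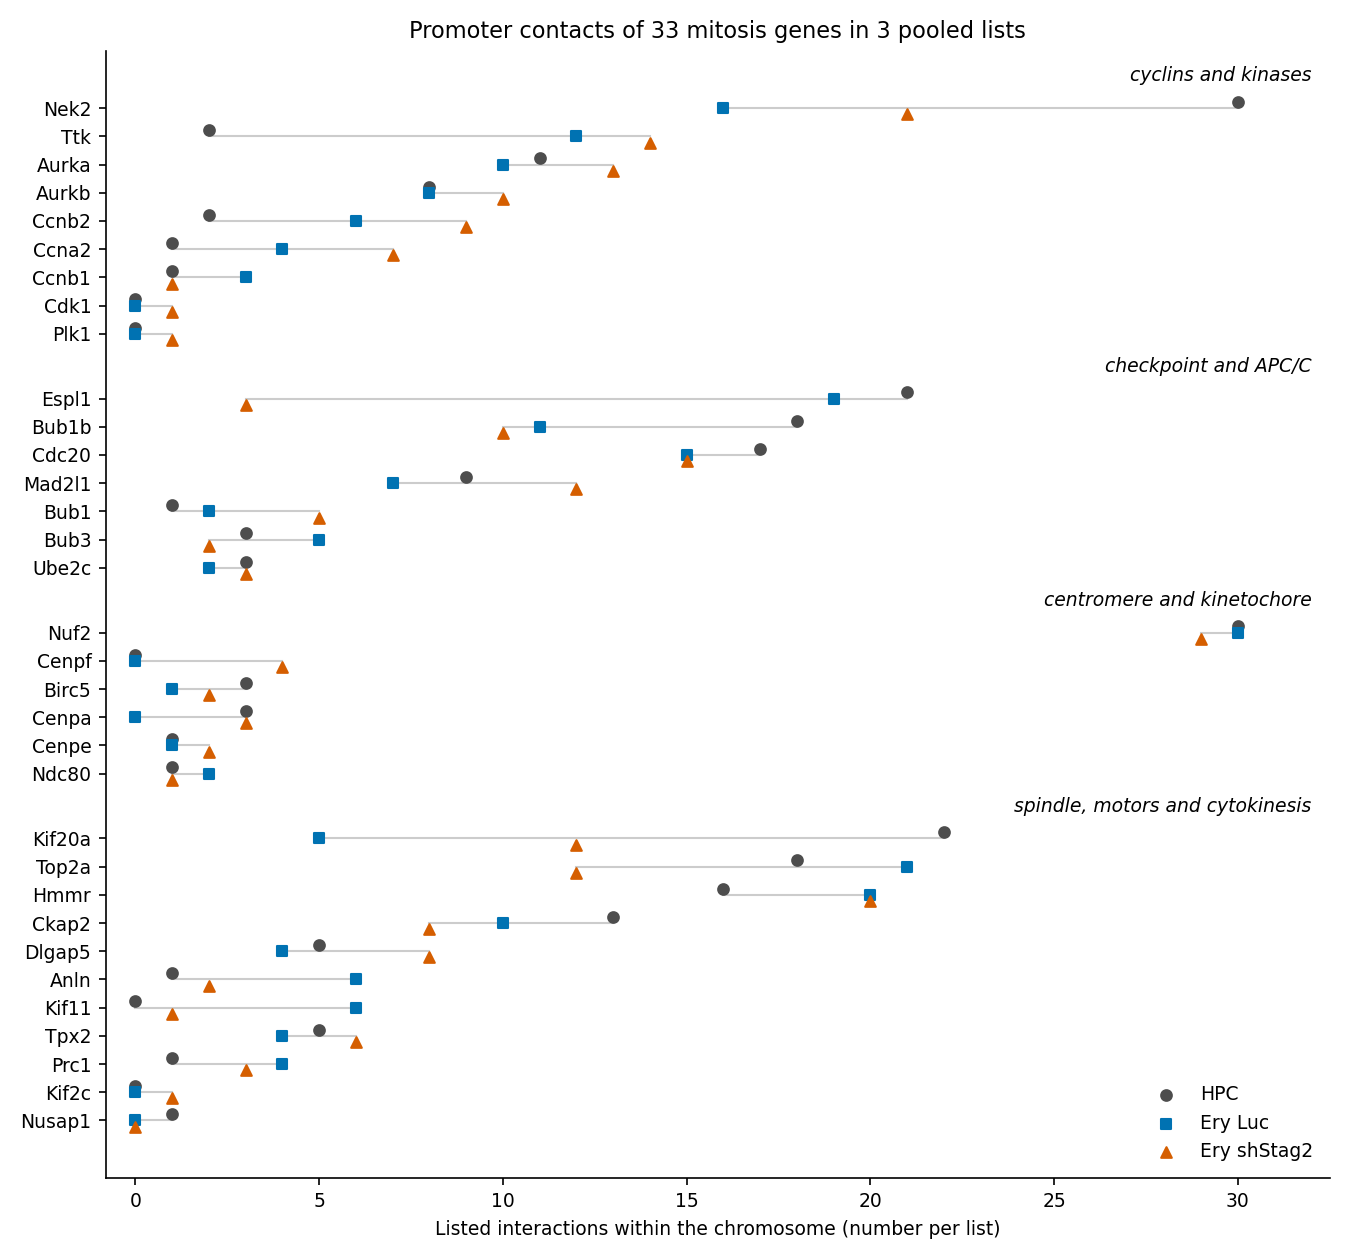
Listed interactions within chromosomes for the 33 captured genes, grouped by role. The x axis counts interactions, each symbol is 1 pooled list and the grey line spans the 3 lists. Nuf2 stays at 29 to 30, Espl1 sits at 3 in Ery shStag2 against 19 and 21, and Kif20a and Nek2 are highest in HPC.

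From HPC to Ery Luc, the genes as a group changed about as often as any gene. A gain or a loss is a difference of at least 2 listed interactions within the chromosome. Among the members, 10 of 33 gained (30.3%), against 30.6% of all 16720 genes, and 9 lost (27.3%), against 24.7%. The median change was 0 for the members and 0 for all genes. Ttk, Kif11 and Anln gained the most, with 10, 6 and 5 more. Kif20a, Nek2 and Bub1b lost the most, with changes of -17, -14 and -7.

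From Ery Luc to Ery shStag2, 13 of 33 members gained (39.4%), against 28.5% of all genes, and 7 lost (21.2%), against 23.5%. The median change was 1 for the members and 0 for all genes. When interactions had to score at least 7, 4 of 33 members gained, against 15.5% of all genes. Both comparisons use the Ery Luc list, so a count that is low in that list lowers the first change and raises the second. Cenpa, Kif20a, Mad2l1 and Nek2 lost and then gained, whereas Anln, Bub3, Ccnb1, Kif11 and Top2a gained and then lost. These 4 and 5 of 33 stand beside 1869 and 2362 of 16720 genes with the same sequences of change. At scores of at least 7 the second change of Nek2 turned to -1 and the first of Top2a to -2. Ccna2, Ccnb2 and Ttk gained in both, and Ckap2 and Espl1 lost in both.

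**Figure D3:**
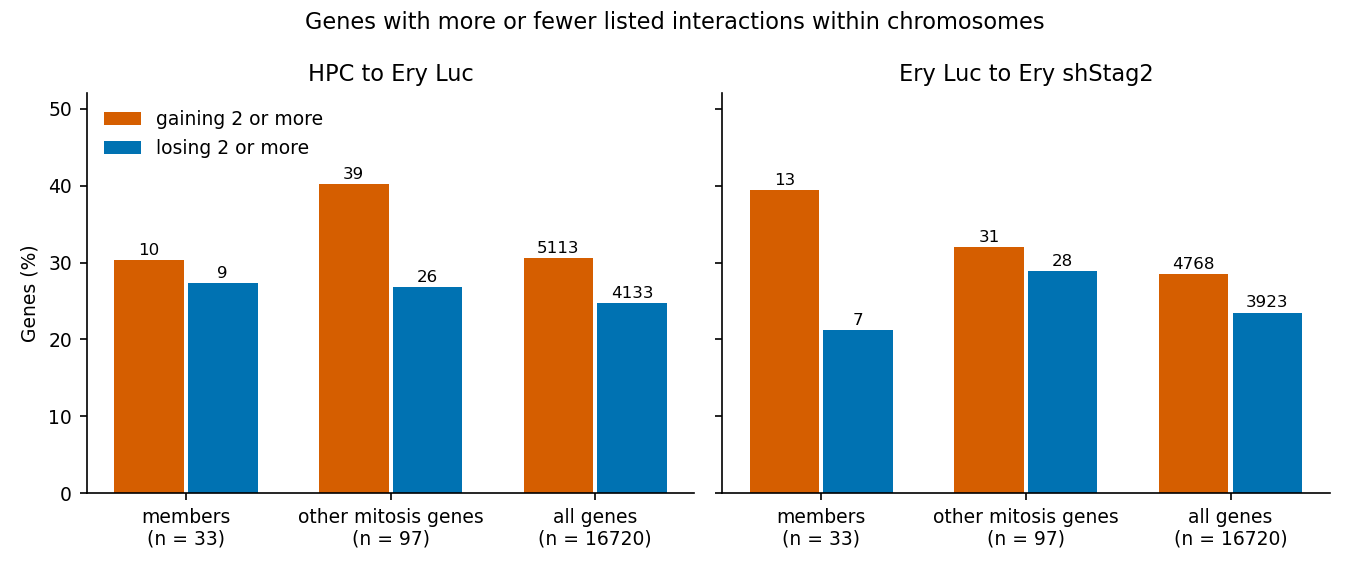
Share of genes that gained or lost at least 2 listed interactions within chromosomes. The y axis is a percent of genes, the number of genes stands on each bar, and the bars start at 0. In the first comparison the 33 members (30.3% and 27.3%) lie near all genes (30.6% and 24.7%), and in the second 39.4% of members gained against 28.5%.

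Among the 9 cyclins and kinases, 4 gained and 1 lost from HPC to Ery Luc, where 30.6% of all genes gained and 24.7% lost. From Ery Luc to Ery shStag2, 6 gained and 1 lost, against 28.5% and 23.5% of all genes. These shares of all genes apply to each group of members below, whose counts are small. Cyclins Ccnb2 and Ccna2, which activate Cdk1 and Cdk2, were lowest in HPC and highest in Ery shStag2. Ccnb2 had 2 interactions in HPC, 6 in the Luc control and 9 with shStag2. Ccna2 had 1, 4 and 7, on a fragment that also holds the start or end of Bbs7. Each of the 17 listed pairs of Ccnb2 stood in 1 list only. The Ery Luc contact at 717.4 kb and the Ery shStag2 contact at 738.9 kb both fell at Aqp9, a channel for water and glycerol, with scores of 8.55 and 7.14. For Ccna2, scoring at least 7 turned the second change to -1.

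Cdk1, the engine of mitotic entry, and Plk1, the Polo kinase, had 0, 0 and 1 interactions each. Their single Ery shStag2 contacts scored 5.32 and 5.56, close to the lowest listed score. Ccnb1 had 1, 3 and 1, from a fragment that holds the 3′ end of the gene and is shared with Cenph.

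Nek2, a centrosomal kinase, had 30 interactions in HPC, 16 in Ery Luc and 21 in Ery shStag2. HPC was the highest list. The loss of 14 from HPC to Ery Luc was matched or passed by 325 of 16720 genes (1.94%). It lay mostly in one block: between 205.6 and 264.1 kb on the lower-coordinate side, over Ints7 and Dtl, 16 fragments were listed in HPC, 6 in Ery Luc and 7 in Ery shStag2. The strongest contact of that block scored 13.89, 13.58 and 8.48. On the other side, between 255.7 and 315.1 kb over Traf5 and Rcor3, the numbers were 8, 7 and 7. The top contact there, at Traf5, scored 18.82, 15.34 and 18.06. With neighbouring other ends merged within 10 kb, Nek2 had 7, 6 and 8 contacted sites, so the loss was of fragments within a block rather than of sites. Nek2 had 13, 11 and 10 interactions at scores of at least 7 and 4, 4 and 2 at scores of at least 10, so the loss shrank to 2 and to 0 and the later gain turned to -1 and -2. Captured fragments within 500 kb also had fewer interactions in Ery Luc, 203 in HPC, 142 in Ery Luc and 170 in Ery shStag2, and the part of this in the Nek2 counts was not tested.

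Ttk (Mps1, the kinase that starts the spindle checkpoint) had 2, 12 and 14 interactions. HPC was low and both erythroid lists were high. A gain of 10 or more from HPC to Ery Luc was seen in 599 genes (3.58%). Many of the contacts in the erythroid lists lay far away, in 2 blocks in and around Ibtk, an inhibitor of Bruton tyrosine kinase. Between 1852.8 and 1881.5 kb, 0 fragments were listed in HPC, 5 in Ery Luc and 7 in Ery shStag2, and between 1894.1 and 1898 kb the numbers were 0, 3 and 2. The first block peaked at a score of 11 in Ery Luc, and at 14.35 in Ery shStag2. The one HPC contact nearby lay at 1919.9 kb and scored 6.38. The other erythroid contacts were scattered outside these blocks, the nearest at 75.3 kb. At scores of at least 7, Ttk still had 0, 5 and 8.

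Aurka, the Aurora kinase of spindle poles, had 11, 10 and 13 interactions, on a fragment shared with Cstf1. Of its pairs, 8 were listed in all 3. Its block at 62.3 to 98 kb, in and around Rtf2, Gcnt7, Fam209 and Cass4, held 8, 8 and 9 fragments. Aurkb, the kinase of the chromosomal passenger complex, had 8, 8 and 10, with highest scores of 15.87, 12.96 and 9.03 and 4 of 16 pairs in all 3 lists. Aurkb had 6, 3 and 2 at scores of at least 7, so its second change turned to -1.

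Of the 7 captured checkpoint and APC/C genes, 1 gained and 4 lost from HPC to Ery Luc, and 2 gained and 2 lost from Ery Luc to Ery shStag2 (all genes 30.6% and 24.7%, then 28.5% and 23.5%). Espl1 encodes separase, the protease that cuts cohesin at anaphase. It had 21 interactions in HPC, 19 in Ery Luc and 3 in Ery shStag2. The knockdown list stood apart from both others. A loss of 16 or more from Ery Luc to Ery shStag2 occurred in 102 of 16720 genes (0.61%). That share includes genes with fewer than 16 interactions in Ery Luc, which could not lose 16. The same limit holds for the shares given for the losses of Nek2, Kif20a and Top2a. In all, 9 contacts were common to HPC and Ery Luc, and 2 of these remained in Ery shStag2. One of these lay over Rarg, a retinoic acid receptor gene 60.1 kb away, and scored 12.15, 11.73 and 7.84. The other, at Soat2 145.8 kb away, scored 10.56, 5.5 and 5.21. Contacts with the body of Espl1 itself, 14.6 to 24.1 kb away, numbered 4, 3 and 0 and scored at most 6.51. The contacts at Mfsd5 (19.8 kb, scores 6.45 and 6.01) and at 11.3 kb (7.26 and 6.47) were likewise listed in HPC and Ery Luc and not in Ery shStag2. At scores of at least 7, Espl1 had 5, 4 and 1. Merged within 10 kb, it had 12, 10 and 3. The 41 captured fragments within 500 kb of it had 302, 309 and 265 interactions. As the other end of neighbours' fragments, the Espl1 fragment was listed 10, 8 and 7 times.

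**Figure D4:**
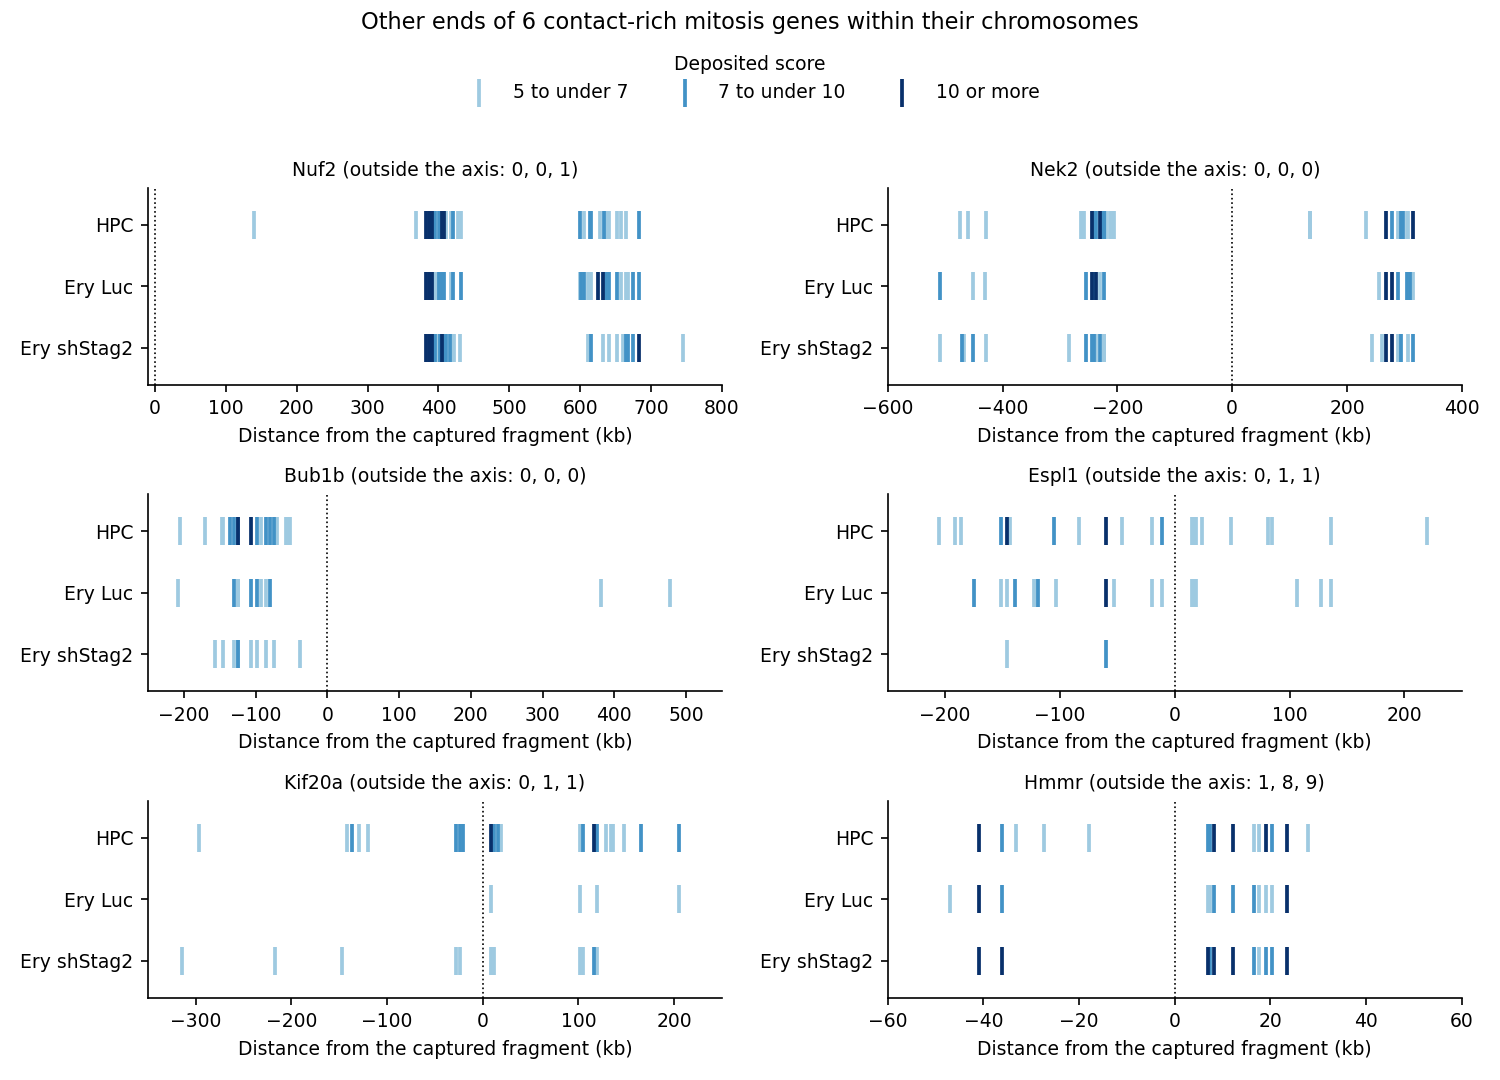
Other ends of 6 contact-rich genes, as the distance in kb from the captured fragment (0, dotted line), with 1 row per list. Darker ticks have higher deposited scores, and the numbers outside the axis are given in the order HPC, Ery Luc, Ery shStag2. Nuf2 keeps both blocks in all lists, Nek2 and Bub1b have fewer ticks on the lower-coordinate side in the erythroid lists, and Espl1 has 2 ticks left on the axis in Ery shStag2.

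Bub1b encodes BubR1, which binds Cdc20 in the checkpoint complex. It had 18, 11 and 10 interactions, with HPC the highest. Its block at 52 to 170.3 kb, in and between Eif2ak4 and Bmf, held 17, 8 and 9 of 18 fragments, with highest scores of 17.28, 9.33 and 7.68. Merging neighbouring ends gave 3, 4 and 3 sites, so this change was also of fragments within a block. Ery Luc alone listed a contact 477.7 kb away with Knl1, the kinetochore scaffold that recruits Bub proteins, at a score of 5.17.

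Cdc20 was among the steadiest genes, with 17, 15 and 15 interactions, 12 of them in all 3 lists. From the fragment at its 3′ end, shared with Elovl1, the same 8 fragments over Cfap57 at 127.5 to 152.6 kb were listed in each list, with highest scores of 15.08, 13.84 and 12.33.

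Bub1, a checkpoint kinase, had 1, 2 and 5 interactions, on a fragment shared with Acoxl. In Ery shStag2 one of these lay 781 kb away at Anapc1, a scaffold of the APC/C, at a score of 7.81. Bub3, its partner, had 3, 5 and 2. Ube2c, the ubiquitin-conjugating enzyme of the APC/C, had 3, 2 and 3, on a fragment shared with Dnttip1 and Tnnc2. The fragment holding Pttg1 was not captured, but it was the other end of a Slu7 fragment in HPC (score 5.36) and of Mat2b and Ccng1 fragments in Ery shStag2 (6.28 and 18.15). Ccng1, at 2671.8 kb, is a neighbour of Hmmr.

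Mad2l1, the Mad2 protein that captures Cdc20, had most of its listed contacts on another chromosome. Within chromosome 6 it had 9, 7 and 12 interactions, none in all 3 lists, with highest scores of 6.96, 6.05 and 8.72. The nearest lay 412.3, 623.1 and 875.2 kb away, against medians of 61.3, 126.3 and 143.4 kb over captured fragments. At least as far a nearest contact was seen for 7.67, 11 and 7.66% of fragments.

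Between chromosomes, the Mad2l1 fragment (chr6:66534905-66540307) had 43 interactions in HPC, 105 in Ery Luc and 105 in Ery shStag2, all with chromosome 11. These were 8.17, 1.19 and 1.08% of all interactions between chromosomes in the lists, which held 526, 8788 and 9752. The strongest was with chr11:46658914-46659335 in all 3 lists, at scores of 298.17, 679.21 and 850.71. It ranked 4, 3 and 1 among all interactions of its list. Scores fell away on both sides: 32, 36 and 40 other ends lay within 100 kb of it, and 42, 91 and 84 within 500 kb. Annotated genes there were Timd2, an immune receptor gene, and Dppa1. Of 155 other ends, 34 were in all 3 lists, 23 in both erythroid lists only, 45 in Ery Luc only, 44 in Ery shStag2 only and 2 in HPC only. Scores of at least 100 were reached by 6, 10 and 12. Chromosome 11 fragments listed the Mad2l1 fragment as their other end 4, 1 and 2 times. Whether the chromosome 11 region holds sequence similar to the Mad2l1 fragment was not tested. Among the other members, contacts between chromosomes numbered 0 in HPC, 8 in Ery Luc and 10 in Ery shStag2, and scored at most 9.86.

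**Figure D5:**
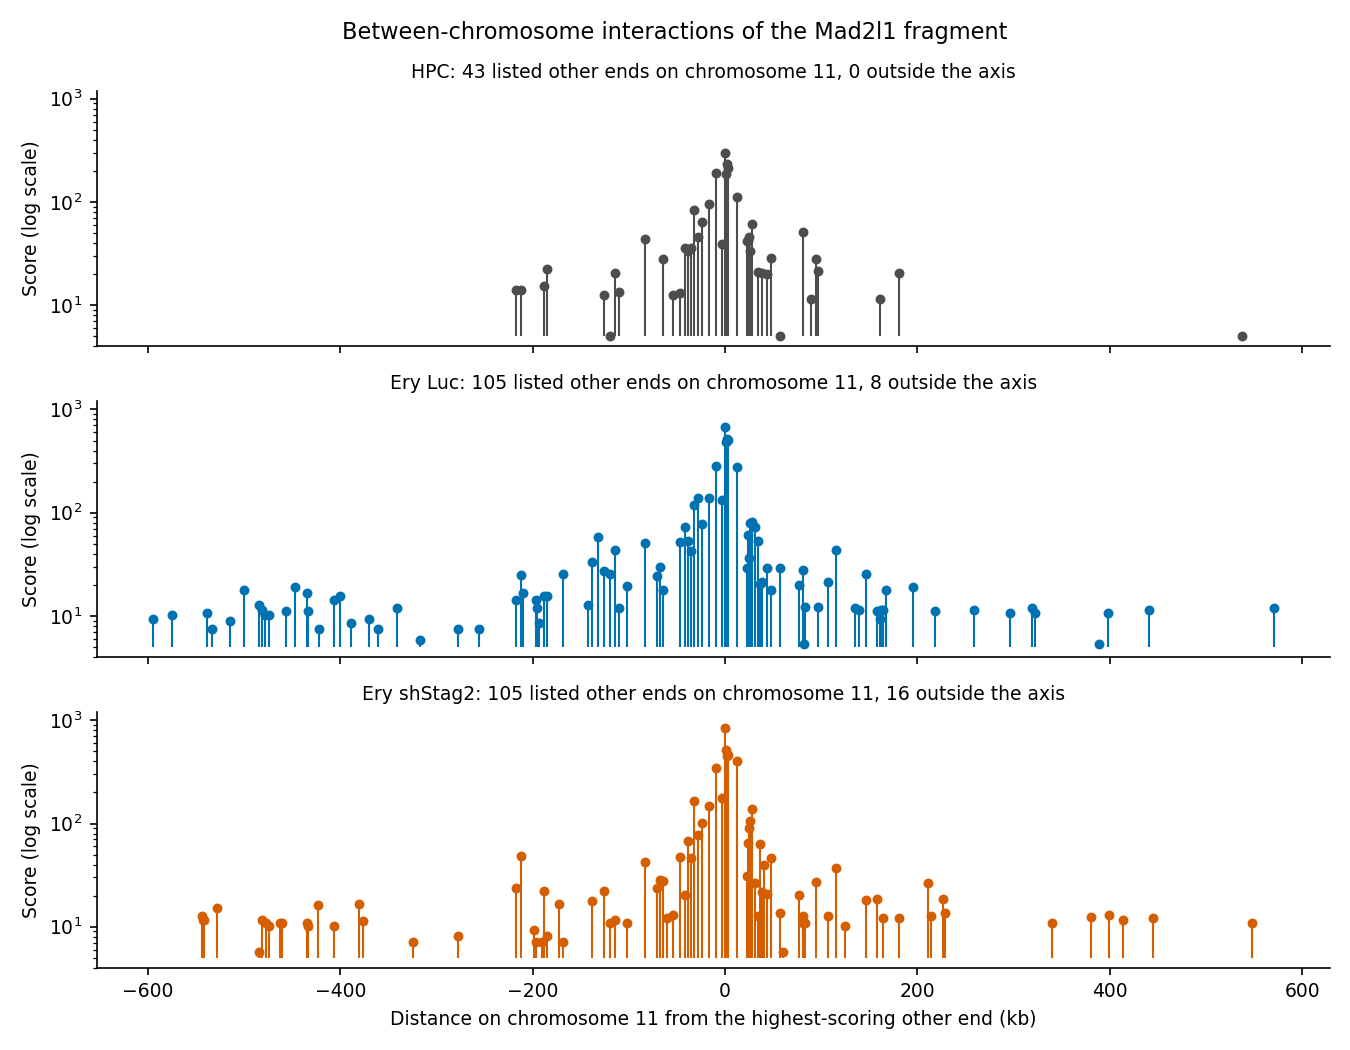
Interactions of the Mad2l1 fragment with chromosome 11 in the 3 lists. The x axis is the distance in kb from the highest-scoring other end and the y axis the deposited score on a log scale. Each list peaks at the same fragment, at 298.17, 679.21 and 850.71, and the erythroid lists have more low-scoring ends to the sides.

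The 6 captured centromere and kinetochore genes ranged from 30 interactions to 0. From HPC to Ery Luc 0 gained and 2 lost, and from Ery Luc to Ery shStag2 2 gained and 0 lost, beside the same shares of all genes. Nuf2, a subunit of the Ndc80 complex that grips microtubules, had 30, 30 and 29 interactions. All lay on the higher-coordinate side, most of them in a pair of blocks. The nearer block, 368.7 to 432.3 kb away in and around Ccdc190 and Hsd17b7, held 17, 14 and 17 of 21 fragments, 11 of them in all 3 lists. Its contact at 386.2 kb scored 12.14, 20.61 and 13.98, and that at 388.2 kb scored 19.97, 15.56 and 12.19. The farther block, 600.2 to 682.7 kb away in and around Uap1 and Uhmk1, held 12, 16 and 10 of 20 fragments. Nuf2 was equally steady at scores of at least 7, with 17, 18 and 16.

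Ndc80, the partner of Nuf2 in that complex, had only 1, 2 and 1 interactions. Cenpa, the histone that marks centromeres, had 3, 0 and 3, and 2 of its contacts were common to HPC and Ery shStag2. Cenpf had 0, 0 and 4, including 2 at Smyd2 with scores of 8.79 and 5.59. Cenpe, a kinetochore motor, had 1, 1 and 2. Birc5 (survivin) had 3, 1 and 2, with no contact common to any pair of lists.

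Among the 11 captured genes of the spindle, motors and cytokinesis, 5 gained and 2 lost from HPC to Ery Luc, and 3 gained and 4 lost from Ery Luc to Ery shStag2. Kif20a, a cytokinesis kinesin, had 22, 5 and 12 interactions. HPC was high, Ery Luc low and Ery shStag2 between. The loss of 17 was matched or passed by 200 genes (1.2%), and the gain of 7 by 1051 (6.29%). With neighbouring other ends merged within 10 kb, Kif20a had 7, 5 and 7 contacted sites. Counted this way, the changes were -2 and 2, so most of the loss was of fragments within blocks. Its fragment also holds a start or end of Brd8 and Cdc23. A block 101.6 to 147.3 kb away, which spans Cdc25c and Fam53c, held 8, 2 and 4 other ends. Within it, the contact at 115.9 kb with Cdc25c, the phosphatase that activates Cdk1, was listed in HPC (score 10.98) and Ery shStag2 (8.71), and that at 119 kb in all 3 lists (7.98, 5.54 and 6.49). Contacts over Cdc23, an APC/C subunit that lies next to it, numbered 4, 1 and 2. At scores of at least 7 the counts were 12, 0 and 1, so 1 of the 12 Ery shStag2 contacts reached that score. The 20 captured fragments within 500 kb did not show the dip to the same degree, with 148, 140 and 166.

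Hmmr, which organizes spindle poles, had 16, 20 and 20 interactions, on a fragment shared with Nudcd2. Of these, 11 pairs were listed in all 3. Near contacts at 7 to 27.8 kb, in and around Nudcd2 and Ccng1, numbered 10, 9 and 9, with 9 in all 3 lists. Contacts beyond 1 Mb numbered 1, 8 and 9, with no fragment in more than 1 list. The HPC contact lay at 2641.1 kb, and both erythroid lists had several ends between 2641.9 and 3817.1 kb. The strongest of these, at Slu7 in Ery shStag2, scored 10.28. The other erythroid ends beyond 1 Mb lay farther away along chromosome 11.

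Top2a, the topoisomerase that untangles sister chromatids, had 18, 21 and 12 interactions over its 2 fragments. The loss of 9 from Ery Luc to Ery shStag2 was matched or passed by 466 genes (2.79%). The promoter fragment had 12, 9 and 6 interactions, and the fragment at the 3′ end had 6, 12 and 6. Most of the loss thus lay at the 3′ end, and with the annotated start only the second change was -3. At scores of at least 7, Top2a had 10, 8 and 2, so the first change turned to -2 while the second stayed a loss. Its promoter fragment met 7, 3 and 4 fragments in a block 84.8 to 138 kb away, with highest scores of 14.92, 7.24 and 9.66. The ends of that block at Ccr7, a chemokine receptor gene, at 126 and 138 kb, were listed in all 3 lists, and the ends that differed held no annotated gene.

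Kif11, the kinesin that separates spindle poles, had 0, 6 and 1 interactions. The Ery Luc contacts were scattered, at Tnks2, Btaf1, Exoc6 and beyond, with a highest score of 7.84. Anln (anillin) had 1, 6 and 2. Ckap2, a spindle protein, had 13, 10 and 8, led by a block at Mrps31 and Slc25a15, 201.2 to 229.6 kb away, of 7, 4 and 3 fragments with highest scores of 24.86, 13 and 14.85. Tpx2, the activator of Aurka, had 5, 4 and 6, all at H13 or Mcts2 apart from 1 HPC contact at 192.6 kb. Dlgap5 had 5, 4 and 8, Prc1 1, 4 and 3, Kif2c 0, 0 and 1, and Nusap1 1, 0 and 0.

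The contacts of the members were re-listed about as often as those of all genes. Of the 247 HPC contacts, 110 (44.5%, exact Clopper-Pearson 95% interval 38.2 to 51.0) were listed again in Ery Luc, against 45.7% over all genes. Of the 234 Ery Luc contacts, 109 (46.6%, 40.1 to 53.2) were listed again in Ery shStag2, against 48.0%. The intervals cover counting error only, and neighbouring fragments are not independent. Re-listing was more frequent at higher scores: from HPC to Ery Luc it was 22.7% at scores of 5 to under 7, 63.2% at 7 to under 10 and 92.1% at 10 or more, against 30, 57.1 and 86.8% over all genes. From Ery Luc to Ery shStag2 the values were 33.8, 57.8 and 92.0%, against 34, 63.5 and 89% over all genes. Of 475 pairs in all, 83 (17.5%) stood in all 3 lists, against 16% over all genes.

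Contacts of the members reached further in the erythroid lists than in HPC, as did those of all genes. The median distance was 139.4, 242.7 and 307.1 kb, against 149.6, 208.9 and 235.2 kb over all genes. The share beyond 1 Mb was 2.43% (0.897 to 5.21) in HPC, 13.2% (9.18 to 18.3) in Ery Luc and 16.2% (11.8 to 21.5) in Ery shStag2, against 1.1, 6.83 and 8.52%. Ttk gave 11 of the 31 such contacts in Ery Luc and 14 of the 39 in Ery shStag2, Hmmr 8 and 9. No contact joined a member to another member.

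The rest of the mitotic machinery was read from a list of 111 other genes, of which 97 had a captured fragment. Among the 97, Cenph, Oip5 and Cdc23 share a fragment with the members Ccnb1, Nusap1 and Kif20a, so those interactions are counted in both sets. From HPC to Ery Luc, 39 gained (40.2%, against 30.6% of all genes) and 26 lost (26.8%, against 24.7%), with a median change of 1. From Ery Luc to Ery shStag2, 31 gained (32%, against 28.5%) and 28 lost (28.9%, against 23.5%), with a median of 0. The 15 other APC/C genes gained 8 times and lost 3 times in the first comparison, then gained 2 times and lost 8 times in the second. The largest gains from HPC to Ery Luc were at Ncaph2, a condensin subunit (76 to 117), Ccnf, an F-box cyclin (35 to 59), and Anapc2, the APC/C cullin (26 to 50). The largest losses were at the APC/C subunit Cdc16 (44 to 18), the kinetochore gene Nsl1 (35 to 14) and Trip13, which takes the checkpoint complex apart (26 to 11). From Ery Luc to Ery shStag2 the largest gains were at Cdc16 (18 to 47), the condensin subunit Ncapd2 (32 to 57) and Rbl2, the p130 pocket protein (1 to 16). The largest losses were at Ncaph2 (117 to 79), the kinesin Kif18b (20 to 8) and the APC/C subunit Cdc26 (22 to 14). Ncaph2 and Cdc16 thus stand in both comparisons with opposite signs, and both comparisons share the Ery Luc list.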

How the data were processed

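Promoter capture Hi-C joins HindIII fragments that lie close in the nucleus and enriches those at promoters. The authors deposited 3 lists of fragment pairs, each pooling 2 libraries per the labels, with coordinates on mm10 per the submitters' processing notes. The deposited score of each pair is at least 5 in every list. How the pairs were called, and at what depth, is not given in the sources used here. Interactions numbered 112183 (HPC), 123042 (Ery Luc) and 130734 (Ery shStag2). Those between chromosomes made up 0.469, 7.14 and 7.46%.

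Interactions were counted by gene with Python 3.11.15 and pandas 2.3.3, using the start and end of protein-coding genes in the RefSeq table (GRCm38.p6). Distances run between fragment midpoints. Intervals are exact binomial (SciPy 1.17.1). A difference of at least 2 was called a gain or loss, and counting was tested on simulated lists. Values are given for all members and for the 3 other mitosis genes with the largest gains and losses. Contacted sites are given for some of the members that gained or lost at least 2 or had at least 20 interactions. The members and lists were chosen with earlier results of these data known. Alternatives were score minimums of 7 and 10, the annotated start only, merged neighbouring ends, interactions between chromosomes included, and shared fragments left out. RNA counts were not used, since 0 of 55943 transcript identifiers matched a gene name in either table.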

Additional observations from a re-analysis of the deposited data

Results flagged for a closer look

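A signal lay outside the counted column. Each pair of captured fragments was listed in 1 order only, and the counts in the report take the captured fragment from the first column. Member fragments stood in the second column of a further 65 interactions within chromosomes in HPC, 68 in Ery Luc and 68 in Ery shStag2. Espl1 had 10, 8 and 7 of these, Bub1b 7, 3 and 3, Kif20a 7, 6 and 4, Mad2l1 5, 4 and 9, Nuf2 5, 6 and 5, and Nek2 5, 3 and 6. With both columns counted, a setting chosen after seeing the data, Espl1 had 31, 27 and 10 interactions, Kif20a 29, 11 and 16, Nek2 35, 19 and 27, Ttk 4, 17 and 19, and Mad2l1 14, 11 and 21.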

How the results depend on the processing

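The deposited lists keep pairs that score at least 5, and most member contacts score under 7, so the score minimum moved the counts most. The 10 members gaining from HPC to Ery Luc became 2 at scores of at least 7 (14.3% of all genes), 0 at scores of at least 10 (5.3%) and 4 with shared fragments left out, where 20 members remain. The 9 losing became 5 at scores of at least 10 (8.55% of all genes) and 5 with neighbouring ends merged (16.6%). The 13 gaining from Ery Luc to Ery shStag2 became 4 (15.5% of all genes), 2 (6.12%) and, with the annotated start only (27 members), 8 (21.6%). That 21.6% is over all 16720 genes, where genes without a captured start placed by strand count as unchanged. It therefore has an unlike base to the 27 members. The 7 losing became 3 at scores of at least 10 (4.68% of all genes) and 4 with shared fragments left out. No share of all genes was computed for the setting with shared fragments left out. The share of HPC contacts listed again in Ery Luc, 44.5%, became 71.7% when an end within 10 kb counted, 73.6% at scores of at least 7 and 92.1% at 10 or more. The share of Ery Luc contacts listed again in Ery shStag2, 46.6%, became 64.5, 67.4 and 92.0%. Changes of single genes turned direction as follows. From HPC to Ery Luc, Bub1b changed by 1 with merged ends and Mad2l1 by 60 with interactions between chromosomes. Cdc20 changed by 1 at scores of at least 7 and by 2 with the start only. Hmmr changed by -2 and -3 at scores of at least 7 and 10, and Top2a by -2, -1 and, with the start only, -3. From Ery Luc to Ery shStag2, Ccna2 changed by -1 and -1, Aurkb by -1 and -2, Nek2 by -1 and -2 and Ckap2 by 1 and 1 at these 2 scores, and Dlgap5 by -1 at 7. Of 39 single-gene changes, 11 kept their call at scores of at least 7, 4 at 10, 31 with merged ends, 37 with interactions between chromosomes and 34 with both columns counted. The cause of these differences was not tested, beyond the fewer interactions that a higher minimum leaves. The RNA comparisons and their alternatives were not run. No paired analysis was possible because each list pools both libraries of its group and no result comes from a test.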
